A study of Mus musculus with 18 samples.

Results

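The cytosolic ribosomal protein genes are described here across 18 samples of mouse bone marrow-derived macrophages (BMDMs). A gene was taken when its symbol began with Rpl or Rps and a digit, or was Rplp0, Rplp1, Rplp2 or Rpsa. Pseudogene symbols, the Rps6 kinases, Rps27l and Rps19bp1 were left out, and a mean of at least 100 counts over the 18 samples was required. Of 88 symbols that matched by name, 83 were kept, 51 of the large and 32 of the small subunit, and all 83 were among the 11305 genes tested. The values that set the limit were 236 mean counts for Rpl22l1, 292 for Rps27rt, 474 for Rpl6l and 709 for Rpl36al just inside it. Just outside lay Rps23rg1 with 3.33, Rpl3l with 1.33, Rpl32l with 0.611, Rpl39l with 0.5 and Rpl10l with 0.

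Ribosomal proteins assemble with ribosomal RNA in the nucleolus into a small subunit, which reads the mRNA, and a large subunit, which joins the amino acids. Their mRNAs are abundant, and most begin with a C and a run of pyrimidines, called a terminal oligopyrimidine (TOP) tract, through which the kinase mTOR and the RNA-binding protein LARP1 control how strongly and how stably they are used. Macrophages that meet bacterial lipopolysaccharide (LPS) change both growth and inflammatory programs, and a later dose of LPS gives a smaller inflammatory response, which is called tolerance.

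The BMDMs came from female C57BL/6 mice and were grown for 7 days with L929-conditioned media, a source of the growth factor M-CSF. Each of 6 groups had 3 samples, described as biological replicates, and whether each came from its own animal is not given in the sources used here. Unstimulated BMDMs received no LPS, and a group given a single dose received LPS at 10 ng/ml for 3 h. Priming was LPS at 100 ng/ml over 24 h (LPS-primed BMDMs). LPS-tolerant BMDMs were primed in the same way, and fresh medium with LPS at 10 ng/ml then replaced the old medium for 3 h. In the last 2 groups, LPS-primed and LPS-tolerant BMDMs received 25 µM carboplatin, a platinum drug that crosslinks DNA, 1 h before priming by the study's methods, whereas the deposited treatment note puts LPS first. The LPS was from Salmonella, and the doses of the single and the priming stimulus differ as well as their times.

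The gene totals ran from 6869667 to 14708099 read pairs a sample. All 9 macrophage markers were detected in every group, with a summed level of 14653 to 31373 CPM, that is, counts scaled to the library's total, while no list of B cell, T cell, neutrophil, dendritic cell, fibroblast or erythroid markers summed to more than 2.22 CPM in any sample, and the T cell markers were at 0. The scaling factors of edgeR's TMM method, which set each library against the bulk of its genes, were 1.16 to 1.20 in unstimulated samples and 0.90 to 1.03 in all other samples. The share of read pairs on no feature was 29.8% to 31.9% in unstimulated and 28.7% to 29.9% in LPS-primed samples. In single-dose samples that share was 30.2% to 33.1%, and the scaling factors were 0.92 to 0.94. The main counts and medians with library size alone, which leaves out these factors, are given where they differ, though not for every gene and list. The part of the no-feature share was not tested. The 50 most abundant other genes took 21.7% to 21.9% of gene counts in unstimulated, 18.3% to 20.8% after the single dose and 28.8% to 30.6% in LPS-primed BMDMs. Scaling by library size alone moved the median log2 fold change (log2FC) of all genes from -0.02 to -0.26 for LPS-primed against unstimulated BMDMs and from -0.09 to -0.43 for the single dose, and changes of the ribosomal protein genes are given beside these medians. A p-value here measures only the spread between samples of the same group, which the edgeR fit pools over the 6 groups. In bulk RNA fewer cells and less RNA per cell cannot be told apart.

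The sequence at the annotated start of the mRNA was compared between the ribosomal protein genes and other genes. In the RefSeq promoter table, 62 of the 83 genes had an entry, and 14 of these (22.6%) had a start annotated at a C that 4 or more C or T followed, against 2.87% of the 9128 tested genes with an entry. A run of 8 or more C or T lay within 15 bases of the start in 41.9% of the ribosomal protein genes with an entry and in 14.7% of all tested genes with one. No gene of 69 for mitochondrial ribosomal proteins, or of 55 for ribosome biogenesis, had a C followed by 4 pyrimidines at its annotated start. The share depends on how exactly the start is annotated, and a start 1 base off is not counted. In LPS-primed against unstimulated BMDMs, 4 of the 14 genes with such a start were called lower (median log2FC -0.35). Of the 48 genes with an entry but no such start 17 were (median -0.34), and of all tested genes 13.1% were. The 48 genes can include TOP mRNAs whose annotated start is off, so this split cannot show whether a TOP tract goes with the change. The 4 genes that were called lower and have such a start are printed first, and Rpl12, Rpl7l1, Rpl36al and Rpl22l1 are shown because the results turn on them. Each sequence runs 5′ to 3′ from 10 bases before to 20 bases after the annotated start, in RefSeq sequence of build GRCm38.p6, and capitals mark the C at the start with the pyrimidines that follow it.
Rpl28: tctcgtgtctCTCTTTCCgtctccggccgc
Rpl15: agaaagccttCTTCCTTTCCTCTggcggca
Rps18: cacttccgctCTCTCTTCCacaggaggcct
Rps6: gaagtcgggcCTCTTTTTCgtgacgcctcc
Rpl12: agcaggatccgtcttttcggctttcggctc
Rpl7l1: gctgcgcaagcgcagtagctgaagcaccgg
Rpl36al: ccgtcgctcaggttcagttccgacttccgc
Rpl22l1: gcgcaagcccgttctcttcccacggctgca
These lie at chr7:4792955-4792984 on the plus strand (Rpl28), chr14:18270967-18270996 on the minus strand (Rpl15), chr17:33955646-33955675 on the minus strand (Rps18), chr4:86857348-86857377 on the minus strand (Rps6), chr2:32961702-32961731 on the plus strand (Rpl12), chr17:46782637-46782666 on the minus strand (Rpl7l1), chr12:69184048-69184077 on the minus strand (Rpl36al) and chr3:28805498-28805527 on the plus strand (Rpl22l1). The pyrimidine run that opens Rpl28, Rpl15, Rps18 and Rps6 is 8 to 13 bases long, and no such run begins at the annotated start of the other 4 genes. In Rpl22l1 a run of 8 or more C or T lies within 15 bases of the start, and in Rpl12, Rpl7l1 and Rpl36al none does. In Rpl12 a shorter run, tcttttc, follows the first base. The lack of a run at the exact annotated start therefore does not show that a gene lacks a TOP tract.

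Over the 300 bases around the start, CCGGAAG, a sequence of the kind that GABP binds, was found on either strand in 38.7% of the ribosomal protein genes with an entry, in 21.5% of tested genes and in 37.7% of the mitochondrial ribosomal protein genes. The E box CACGTG, which Myc can bind, was found in 9.68% of the ribosomal protein genes, 11.95% of tested genes and 27.3% of the ribosome biogenesis genes. GGGCGG, of the kind that Sp1 binds, was found in 61.3% against 68.8% of tested genes, AGATGGCG, of the kind that YY1 binds, in 6.45% against 4.71%, and TATAAA in 11.3% against 8.38%.

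The 83 genes held 3.65%, 3.50% and 3.52% of the gene counts in the 3 unstimulated samples. After the single dose of LPS the share was 3.38%, 2.83% and 3.25%, in LPS-primed BMDMs 2.62%, 2.22% and 2.27%, and in LPS-tolerant BMDMs 2.57%, 2.52% and 2.47%. With carboplatin it was 2.66%, 2.48% and 2.52% in LPS-primed and 2.76%, 2.52% and 2.37% in LPS-tolerant BMDMs. Every unstimulated sample was above every sample of the other groups, and the LPS-primed and LPS-tolerant groups overlapped.

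**Figure D1:**
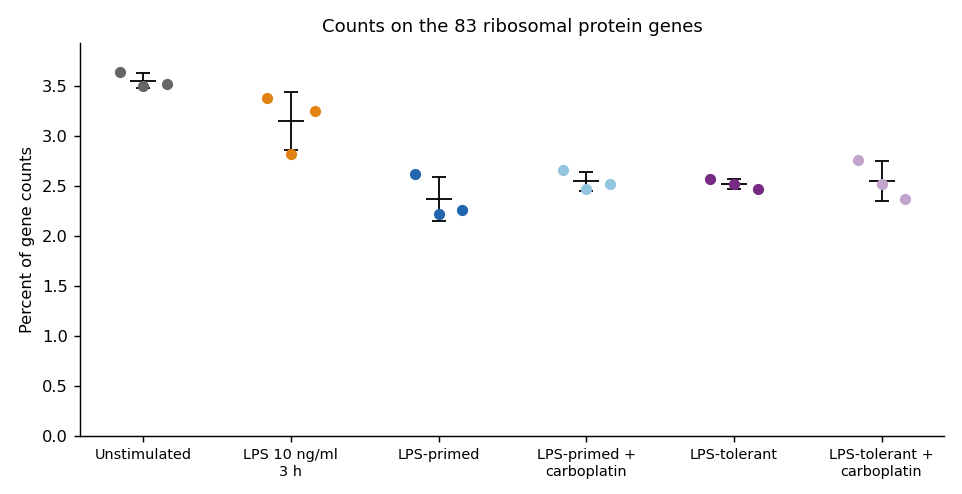
Percent of all gene counts on the 83 ribosomal protein genes (y axis) in each sample (points) of the 6 groups (x axis), with the mean and SD of 3 samples as a line and bars. The unstimulated samples sit at 3.50% to 3.65% and the LPS-primed samples at 2.22% to 2.62%.

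The mean share was 3.56% ± 0.0764 (SD, n = 3) in unstimulated and 2.37% ± 0.22 in LPS-primed BMDMs, a difference of -1.19 percentage points. The exact two-sided permutation test gave p = 0.1, the smallest that 3 against 3 samples allow, and an adjusted p of 0.2 over 6 comparisons. The same p was found for the single dose against unstimulated BMDMs, with a difference of -0.406 points, and for LPS-tolerant BMDMs against the single dose, with -0.63 points. Without the 50 most abundant other genes in the total, LPS-tolerant BMDMs and the single dose overlapped (exact p = 0.4). LPS-tolerant against LPS-primed BMDMs (exact p = 0.4) and the carboplatin comparisons (exact p = 0.3 in LPS-primed and 0.9 in LPS-tolerant BMDMs) overlapped. Within same-numbered samples the share was higher with carboplatin in 3 of 3 LPS-primed pairs and in 1 of 3 LPS-tolerant pairs. An exact paired permutation test gave p = 0.25 in LPS-primed BMDMs, the smallest that 3 pairs allow, and p = 1 in LPS-tolerant BMDMs. Counts on the large subunit were 1.39 to 1.49 times those on the small subunit in the 18 samples. In LPS-tolerant BMDMs this ratio was 1.458 to 1.464, above the 1.418 to 1.458 of the single dose and the 1.419 to 1.448 of LPS-primed BMDMs (exact two-sided permutation test, p = 0.1 for both, adjusted p = 0.3 for both over 6 comparisons), and the other 4 comparisons overlapped.

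Per kilobase of transcript, the highest mean levels over all samples were those of Rplp1, an acidic protein of the stalk that recruits elongation factors, with 10627 normalized counts per kilobase, Rpl26 with 8639 and Rps15 with 7425. The median of the 81 genes with a transcript in GENCODE was 3299. The lowest were Rpl37 with 242.5, Rps15a with 329 and Rpl22l1 with 411. The transcripts used for Rpl37 and Rps15a are 6093 and 5136 bases long, so their values per kilobase rest on long annotated ends, whereas that of Rpl22l1 has 558 bases. A normalized count is a gene's count set relative to the effective (TMM) size of its library, brought back to the average such size.

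With TMM, 76 of the 83 genes had their highest group mean after the single dose, and the lowest was in LPS-primed BMDMs (55 genes) or LPS-primed BMDMs with carboplatin (17 genes). With library size alone the highest mean was in unstimulated BMDMs in 74 genes and after the single dose in 7, and the lowest was in the same groups, in 52 and 16 genes. For each gene the coefficient of variation between replicates was taken as the median over the 6 groups. It had a median of 10.4% over the genes, and 3 genes were above 25%: Rpl7a with 47.5%, Rps27rt with 47.2% and Rpl22l1 with 30.6%. Within a single group other genes also passed 25%, among them Rpl30 with 38.8% and Rpl17 with 27.3% in LPS-tolerant BMDMs. Rpl7a had 1904, 517 and 1230.3 normalized counts in the 3 LPS-primed samples, and Rps27rt, named as a retrotransposed copy of Rps27, had 122, 239 and 490.0 in the 3 LPS-tolerant samples. Of the 81 genes in GENCODE, 31 shared 50% or more of their 100-base stretches with a transcript of another gene, and reads that align to more than one place were not counted on genes (4.21% to 5.18% of read pairs). These 31 genes had a median log2FC of -0.36 for LPS-primed against unstimulated BMDMs with 11 called lower, and the other 50 had -0.36 with 20 called lower.

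LPS-primed BMDMs had lower levels of many ribosomal protein mRNAs than unstimulated BMDMs. In the edgeR quasi-likelihood test, 32 of the 83 genes (38.6%) were called lower at an adjusted p under 0.05 and 0 higher, while of all tested genes 25.2% were called, 13.1% lower and 12.1% higher. The median log2FC of the 83 genes was -0.36, against -0.02 for all tested genes, and 77 of the 83 lay below the median of all genes. Both subunits took part, with 18 of 51 large-subunit and 14 of 32 small-subunit genes called lower and medians of -0.36 and -0.35. In 53 genes all 3 LPS-primed samples were below all 3 unstimulated samples, as in 21.3% of all tested genes, and in 2 genes they were above, as in 18.1%. With the replicate number as a block, 49 were called lower and 2 higher, where 19.8% and 18.9% of all genes were called lower and higher. At an unadjusted p under 0.05, 2 genes were higher in edgeR, and at an adjusted p DESeq2 called 1 higher and limma-voom 0. The count of lower genes was 13 without LPS-primed replicate 2, 14 without LPS-primed replicate 3, and 15, 18 and 19 without unstimulated replicates 1, 2 and 3.

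**Figure D2:**
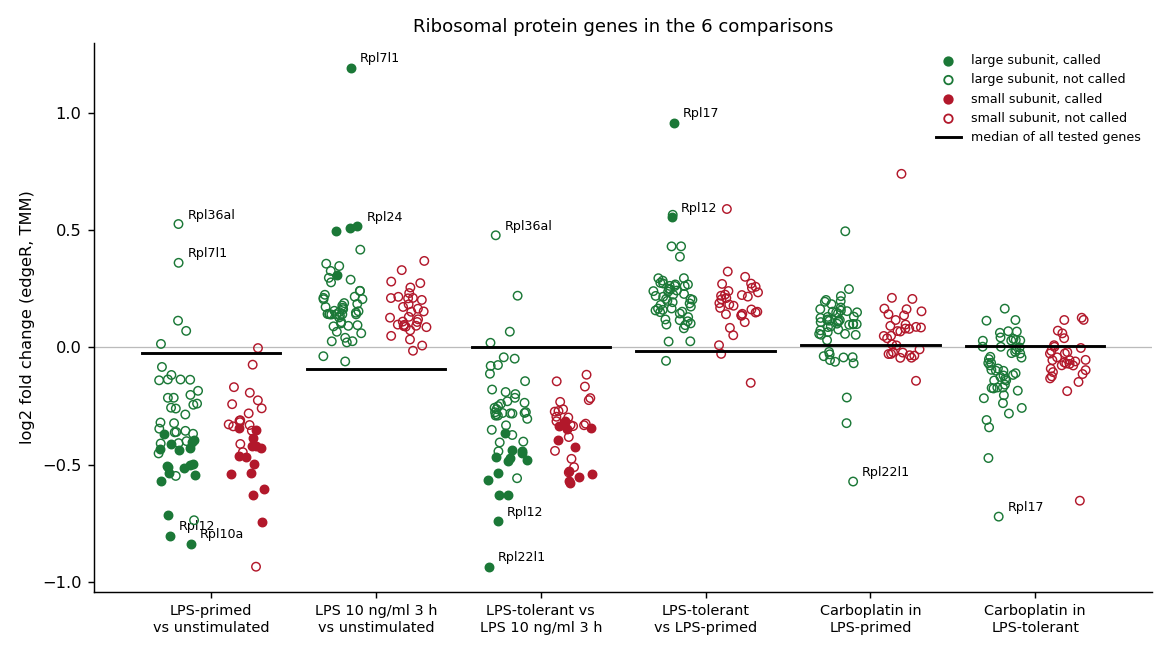
log2 fold change from edgeR with TMM scaling (y axis) of each of the 83 ribosomal protein genes (points) in 6 comparisons (x axis), with large-subunit genes on the left of each column and small-subunit genes on the right. Filled points were called at an adjusted p under 0.05, and the black line is the median of all tested genes: 32 points are filled for LPS-primed, 5 for the single dose, 25 for LPS-tolerant against the single dose, 2 for LPS-tolerant against LPS-primed and none for carboplatin.

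Rpl10a, a large-subunit protein at chr17:28547144-28550008 of GRCm39, had 2173, 2001 and 1682 normalized counts in unstimulated and 1153, 1186 and 939 in LPS-primed BMDMs. The groups did not overlap, and the log2FC was -0.84 (SE 0.14, edgeR adjusted p = 0.000188). Rpl12, which sits at the base of the stalk, at chr2:32851496-32855357, had 1607, 1538 and 1401 normalized counts in unstimulated and 870.0, 981 and 756 in LPS-primed BMDMs, a log2FC of -0.80 (SE 0.13, edgeR adjusted p = 0.000198). Rps12, a small-subunit protein, went from 1997, 1834 and 1411 to 1281, 1006 and 846, with a log2FC of -0.74 (SE 0.17, edgeR adjusted p = 0.00303). For Rpl10a, Rpl12 and Rps12, 82.0%, 58.8% and 83.4% of the 100-base stretches occur in another gene. Each of these 3 genes was lower in 3 of 3 same-numbered pairs, and each call held when any 1 sample of the comparison was left out. The other named genes called lower under all 6 such fits were Rpl32 (log2FC -0.72), Rps4x (-0.60), Rpl3, which helps to shape the peptidyl transferase centre (-0.57), Rps7 (-0.54) and Rpl6 (-0.50). Rps27rt had the lowest log2FC, -0.94, but an SE of 0.60, and was not called (edgeR adjusted p = 0.288).

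Among the genes known for other roles, Rplp1 fell by 0.54 on the log2 scale (SE 0.17, edgeR adjusted p = 0.0222), while the other stalk proteins Rplp0 (log2FC -0.14) and Rplp2 (-0.08) were not called. Rps6, the substrate of S6 kinase, fell by 0.35 (edgeR adjusted p = 0.0344) and Rpl11, which with Rpl5 binds and restrains MDM2, by 0.44 (edgeR adjusted p = 0.0108). The log2FC was -0.36 for Rpl5, -0.41 for Rpsa, the laminin receptor precursor, -0.28 for Rps3, -0.21 for Rpl13a, a translational silencer of inflammatory mRNAs, -0.32 for Rps27a, which is made as a fusion with ubiquitin, and -0.45 for Rps19, mutated in Diamond-Blackfan anaemia. None of these 6 was called without the replicate block. With it, Rpl5 (edgeR adjusted p = 0.0307), Rpsa (0.00182), Rps3 (0.00981) and Rps19 (0.00746) were called lower, and Rpl13a (0.0743) and Rps27a (0.0765) were not. Some calls were lost when 1 sample was left out, while the log2FC kept its sign, between -0.43 and -0.26 for Rps6, -0.65 and -0.46 for Rplp1, -0.50 and -0.36 for Rpl7 and -0.51 and -0.39 for Rpl11. The call of Rps6 was lost without unstimulated replicate 1 (edgeR adjusted p = 0.172) or 3 or any LPS-primed replicate, that of Rplp1 without unstimulated replicate 1 (0.0867) or 2 or LPS-primed replicate 2 or 3, that of Rpl7 without any unstimulated replicate or LPS-primed replicate 2 or 3 (0.085 without the last), and that of Rpl11 without LPS-primed replicate 2 (0.0516).

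Rpl36al and Rpl7l1 lay on the other side. Rpl36al, a paralogue of Rpl36a at chr12:69228230-69231234, had 623, 469 and 532 normalized counts in unstimulated and 959.9, 712 and 666 in LPS-primed BMDMs, with no overlap. Its log2FC was 0.53 (SE 0.20), with an edgeR adjusted p of 0.0587 and of 0.00115 with the replicate block. It overlaps Gm49383 on the same strand, so how reads were split between them is uncertain. Rpl36a itself had 1342, 1248 and 1593 normalized counts in unstimulated and 1150.4, 772 and 1134 in LPS-primed BMDMs, a log2FC of -0.45 that was called lower only with the replicate block (edgeR adjusted p = 0.0617 without and 0.0331 with it). Rpl7l1, a paralogue of Rpl7, had a log2FC of 0.36 (edgeR adjusted p = 0.0672, and 0.0194 with the replicate block), while Rpl7 fell by 0.41 (edgeR adjusted p = 0.0213). The log2FC of Rpl24 was 0.11 and that of Rpl41 was 0.07, and neither was called. Rpl22l1, a paralogue of Rpl22, had 362, 266 and 366 counts in unstimulated and 114, 273 and 209 in LPS-primed BMDMs, which overlap, with a log2FC of -0.74 (edgeR adjusted p = 0.101, and 0.0251 with the replicate block).

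**Figure D3:**
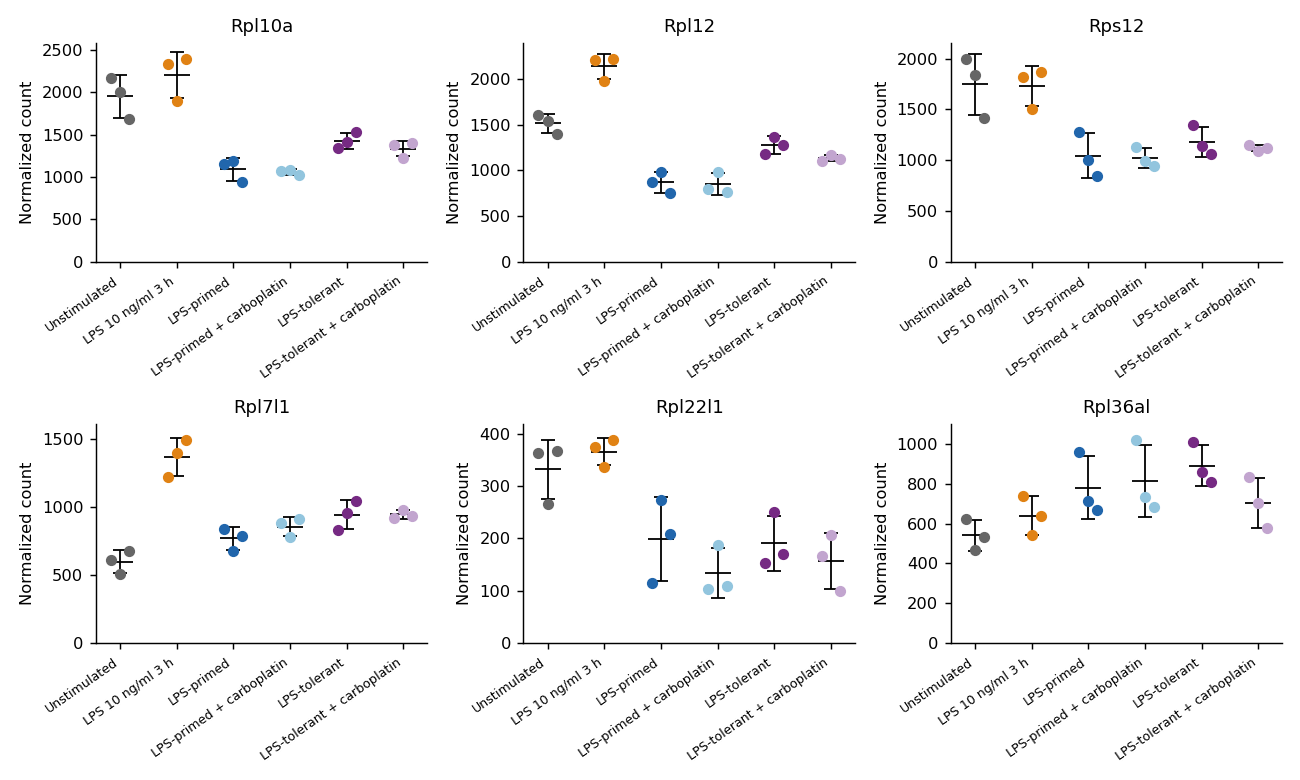
Normalized counts (y axis, from 0) in each sample (points) of the 6 groups (x axis) for Rpl10a, Rpl12, Rps12, Rpl7l1, Rpl22l1 and Rpl36al, with the mean and SD of 3 samples. Rpl10a, Rpl12 and Rps12 are lower in all LPS-primed than in all unstimulated samples, Rpl7l1 is highest after the single dose with 1216 to 1489 normalized counts, and Rpl36al is higher in all LPS-primed samples than in all unstimulated ones.

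The single dose of LPS moved the ribosomal protein genes little, and their direction depended on the scaling. With TMM the median log2FC of the 83 genes was 0.15, with RLE, the median-ratio factors that DESeq2 uses, 0.19 and with library size alone -0.18, while all tested genes had medians of -0.09, -0.06 and -0.43. Relative to the median of all genes the 83 genes were 0.25 higher under each of these scalings, which share the same 11305 genes, and 83 of 83 lay above it. A scaling shifts all genes of a comparison by nearly the same amount, so this distance could hardly differ between scalings. With other sets of genes (at least 10 counts in every sample, no filter, or DESeq2) the 83 genes were 0.18 higher, and 81 lay above the median. In edgeR with TMM, 5 genes were called higher and 0 lower, where 51.2% of all genes were called, 24.3% higher and 26.9% lower. No gene was lower at an unadjusted p under 0.05 (0 of 83), and DESeq2 and limma-voom called 0 lower, while DESeq2 called 12 higher and limma-voom 5. All 3 samples were above all 3 unstimulated samples in 22 genes, as in 26.0% of all genes. The replicate block gave 12 higher, against 29.5% of all genes. With library size alone, 1 gene was called higher and 6 lower, and the share of all genes called was not counted there. Without single-dose replicate 1, or without replicate 3, 3 genes were called higher.

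Rpl7l1 had 612, 509.8 and 673 normalized counts in unstimulated BMDMs and 1216, 1396 and 1489 after the single dose. It lies at chr17:47084824-47093606, and 2.19% of its 100-base stretches occur in another gene. Its log2FC was 1.19 (SE 0.14, edgeR adjusted p = 2.45e-06), and it was the gene still called higher with library size alone (log2FC 0.85). Its relative Rpl7 had 7150.1, 6791 and 7016 counts before and 8093, 7187 and 8179 after the dose. These did not overlap, but the log2FC of 0.16 was not called (edgeR adjusted p = 0.289).

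The other genes called higher were Rpl24, Rpl38, Rpl12 and Rpl4, of which Rpl4 was named after its values were seen. Rpl24, which bridges the subunits, went from 2653, 2226 and 2439 to 3263, 3373 and 3826 normalized counts (log2FC 0.52, SE 0.16, edgeR adjusted p = 0.0123). It overlaps Gm28037 on the same strand, and 91.5% of its 100-base stretches occur in another gene. Rpl38, known for its role in translating Hox mRNAs, had a log2FC of 0.51 (SE 0.19, edgeR adjusted p = 0.0333), Rpl12 of 0.49 (SE 0.13, edgeR adjusted p = 0.0044) and Rpl4, which lines the exit tunnel, of 0.31 (edgeR adjusted p = 0.0272). Rpl12 and Rpl7l1 kept their calls without any 1 sample. The call of Rpl24 was lost without single-dose replicate 3 (edgeR adjusted p = 0.052), that of Rpl38 without unstimulated replicate 1 (0.104) or 2 or single-dose replicate 1 or 3, and that of Rpl4 without unstimulated replicate 2 (0.0761) or single-dose replicate 1 or 3. With library size alone the log2FC was 0.18 for Rpl24, 0.17 for Rpl38, 0.16 for Rpl12 and -0.03 for Rpl4, and none of these 4 was called.

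LPS-tolerant BMDMs were compared with BMDMs that had the same 3 h dose without priming. Of the 83 genes, 25 were called lower in LPS-tolerant BMDMs and 0 higher, and the other 58 were not called, where 34.5% of all genes were called, 18.3% lower and 16.2% higher. The median log2FC was -0.32 against 0.00 for all genes, and library size alone gave -0.32 as well. Of the 25, 14 were large-subunit and 11 small-subunit genes. With the replicate block 54 were called lower and 1 higher (24.7% and 22.9% of all genes). All LPS-tolerant samples were below all single-dose samples in 48 genes, against 23.1% of all genes, and above them in 1, against 21.1%. In edgeR 1 gene was higher at an unadjusted p under 0.05, and DESeq2 and limma-voom called 0 higher. The count of lower genes was 13 and 12 without LPS-tolerant replicates 2 and 3, and 15 and 12 without single-dose replicates 1 and 3. This comparison shares no sample with that of LPS-primed against unstimulated BMDMs, and 19 genes were called lower in both, which is 59.4% of the 32 and 76% of the 25. Over all tested genes 570 were called lower in both, which is 38.6% of 1477 and 27.6% of 2067. Same-numbered samples deviated together across groups (mean r of 0.30 over all pairs of groups), so that the comparisons are not independent.

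Rpl12 had 2207, 1980.1 and 2217 normalized counts after the single dose and 1181, 1369 and 1279.6 in LPS-tolerant BMDMs, a log2FC of -0.74 (SE 0.13, edgeR adjusted p = 0.000289). Rpl10a went from 2335, 1896 and 2395 to 1342, 1408 and 1533 (log2FC -0.63, SE 0.14, edgeR adjusted p = 0.00158) and Rpl32 from 4317, 3590.0 and 4217 to 2851, 2408 and 2579.8 (log2FC -0.63, SE 0.14, edgeR adjusted p = 0.00189). These calls, and those of Rps7 (log2FC -0.58), Rpl4 (-0.57), Rpl7l1 (-0.54), Rps4x (-0.53), Rpl3 (-0.49) and Rpl7 (-0.48), held without any 1 sample. Rpl22l1 had 373, 336 and 387 normalized counts after the single dose and 152, 249.6 and 169.9 in LPS-tolerant BMDMs. Its log2FC was -0.94 (SE 0.32, edgeR adjusted p = 0.0295), and the call was lost without LPS-tolerant replicate 1 (edgeR adjusted p = 0.106) or 3 or single-dose replicate 1 or 3. Rpl22 had a log2FC of -0.11 and was not called. Rplp1 fell by 0.45 and Rps27a by 0.43. The call of Rplp1 was lost without LPS-tolerant replicate 2 (0.161) or 3 or single-dose replicate 1 or 3, and that of Rps27a without single-dose replicate 2 (0.228) or any LPS-tolerant replicate. Rpl36al again lay on the other side, with 739.7, 542 and 638 counts after the single dose and 1007, 857 and 809 in LPS-tolerant BMDMs (log2FC 0.48, SE 0.20, edgeR adjusted p = 0.0686, and 0.00151 with the replicate block).

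LPS-tolerant BMDMs were also compared with LPS-primed BMDMs. These groups differ by the dose of 10 ng/ml given to primed cells, by the fresh medium and by the added 3 h. The 3 cannot be told apart, since no primed group received fresh medium alone. The median log2FC of the 83 genes was 0.21, against -0.01 for all genes, and 0.10 with library size alone, against -0.11 for all genes. In edgeR 2 genes were called higher, Rpl17 and Rpl12, and 0 lower, where 6.31% of all genes were called, 3.60% higher and 2.71% lower. No gene was lower at an unadjusted p under 0.05 (0 of 83), and DESeq2 and limma-voom called 0 lower. The replicate block called 5 higher, against 9.67% of all genes. In 16 genes the groups did not overlap, with LPS-tolerant above, against 12.6% of all genes.

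Rpl17, a protein of the exit tunnel, had 697, 546 and 657 normalized counts in LPS-primed and 848, 1363 and 1478 in LPS-tolerant BMDMs (log2FC 0.96, SE 0.22, edgeR adjusted p = 0.0133). LPS-tolerant replicate 1 stood well below the other two, and the call was lost without LPS-tolerant replicate 3 (0.0737) or 2 or LPS-primed replicate 2. Rpl12 had 870.0, 981 and 756 counts in LPS-primed BMDMs and 1181, 1369 and 1279.6 in LPS-tolerant BMDMs (log2FC 0.56, SE 0.13, edgeR adjusted p = 0.0168). Its call was lost without LPS-primed replicate 3 (0.0965) or 1 or LPS-tolerant replicate 2 or 3. Rps27rt (log2FC 0.59, SE 0.60) and Rpl30 (0.57, SE 0.22) were not called.

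An interaction contrast over 4 groups set the step from LPS-primed to LPS-tolerant BMDMs against the first dose in naive cells. That step, called the second-dose effect, includes the fresh medium and the added 3 h. For 1 of the 83 genes, Rpl7l1, the second-dose effect was smaller than the first-dose effect, by -0.90 on the log2 scale (SE 0.20, edgeR adjusted p = 0.00274, and 0.000306 with the replicate block), where 23.8% of all genes were called and 13.3% called lower. The adjusted p of Rpl7l1 lay between 0.00174 and 0.00982 without any 1 of the 12 samples. Rpl7l1 had 838, 678 and 787 normalized counts in LPS-primed and 831, 951 and 1044 in LPS-tolerant BMDMs, which overlap, and the log2FC of 0.30 was not called. No other ribosomal protein gene was called, and the interval for a single gene is wide: for Rpl12 the difference between the effects had a 95% interval of -0.34 to 0.46.

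Carboplatin gave no called change in the ribosomal protein genes. In LPS-primed BMDMs 0 of 83 were called in either direction by edgeR, 0 had an unadjusted p under 0.05, and DESeq2 and limma-voom called 0, where 0.372% of all genes were called. In LPS-tolerant BMDMs edgeR, DESeq2 and limma-voom called 0, where 0.425% of all genes were called, and 2 genes had an unadjusted p under 0.05, both lower. The replicate block called 0 in both, where 1.77% of all genes were called in each. The median log2FC was 0.09 in LPS-primed and -0.07 in LPS-tolerant BMDMs, and the latter was 0.01 without LPS-tolerant carboplatin replicate 3. With library size alone these medians were 0.11 and -0.003, against 0.03 and 0.07 for all genes. For Rpl12, the 95% interval of the carboplatin log2FC was -0.31 to 0.25 in LPS-primed and -0.45 to 0.11 in LPS-tolerant BMDMs. The extremes were Rps27rt (0.74, SE 0.60) and Rpl22l1 (-0.57, SE 0.32) in LPS-primed and Rpl17 (-0.72, SE 0.21, edgeR adjusted p = 0.239) in LPS-tolerant BMDMs. Rpl17 had 986, 678 and 576 normalized counts in LPS-tolerant BMDMs with carboplatin, which overlap the 848 to 1478 without it. The 2 carboplatin effects differed for 0 of the 83 genes by edgeR, and for 0 of all 11305 genes, while 3 of the 83 had an unadjusted p under 0.05.

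Other genes of the translation machinery were set beside these. Rack1, a ribosomal protein of another name and a scaffold on the small subunit, was called lower in LPS-primed BMDMs (log2FC -0.46, edgeR adjusted p = 0.0345) and in LPS-tolerant BMDMs against the single dose (-0.57, adjusted p = 0.00745). Fau, which is made as a fusion with a ubiquitin-like protein, was not called in either (log2FC -0.05 and -0.0027). Of 17 other mRNAs known to carry a TOP tract, Rack1 among them, 9 were lower and 1 higher in LPS-primed BMDMs, and 12 lower and 0 higher in LPS-tolerant BMDMs against the single dose, with medians of -0.42 and -0.52. With library size alone 12 were lower and 0 higher in LPS-primed BMDMs, with a median of -0.66. In LPS-tolerant BMDMs against the single dose 11 were then lower and 0 higher, with a median of -0.52. Tpt1 fell by 0.84 with priming, from 14919, 13184 and 16177 to 8914, 7070.4 and 8690.0 normalized counts, Nap1l1 by 1.21 and the elongation factor subunit Eef1b2 by 0.70. After the single dose, 6 of the 17 were higher and 2 lower (4 and 7 with library size alone), with log2FC values of 1.24 for Hnrnpa1, 0.95 for Pabpc1, the poly(A)-binding protein, and 0.70 for Eef1g.

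Genes for ribosome biogenesis, which make ribosomal RNA and assemble the subunits, are given next to the ribosomal proteins. After the single dose 58 of 60 were called higher with a median log2FC of 1.45 (1.11 with library size alone, where 47 were higher and 1 lower), against 5 of 83 ribosomal protein genes. Nop58, a box C/D snoRNA protein, went from 414, 362 and 339 to 3315, 4465 and 3815 normalized counts (log2FC 3.38), Rrs1 had a log2FC of 3.29 and Rcl1 of 4.32. In LPS-primed BMDMs 8 were higher and 1 lower, with a median of 0.15 (3 and 7 with library size alone), and in LPS-tolerant BMDMs 38 were lower than after the single dose and 0 higher. In the contrast of the second with the first dose, 38 of the 60 had a smaller second-dose effect, against 1 of the 83 ribosomal protein genes. The 78 mitochondrial ribosomal protein genes had medians of 0.11 in LPS-primed BMDMs, 0.04 after the single dose and 0.08 in LPS-tolerant BMDMs against the single dose (-0.13, -0.29 and 0.08 with library size alone), and 4, 16 and 6 were called higher and 1, 7 and 6 lower. With library size alone 2, 7 and 6 were called higher and 4, 29 and 5 lower, so that most calls after the single dose were then lower ones, and with the replicate block 7, 18 and 15 were higher and 3, 16 and 8 lower. Mrpl52 had the lowest adjusted p among them in both comparisons with unstimulated BMDMs, with a log2FC of 1.84 in LPS-primed BMDMs and of 2.61 after the single dose.

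**Figure D4:**
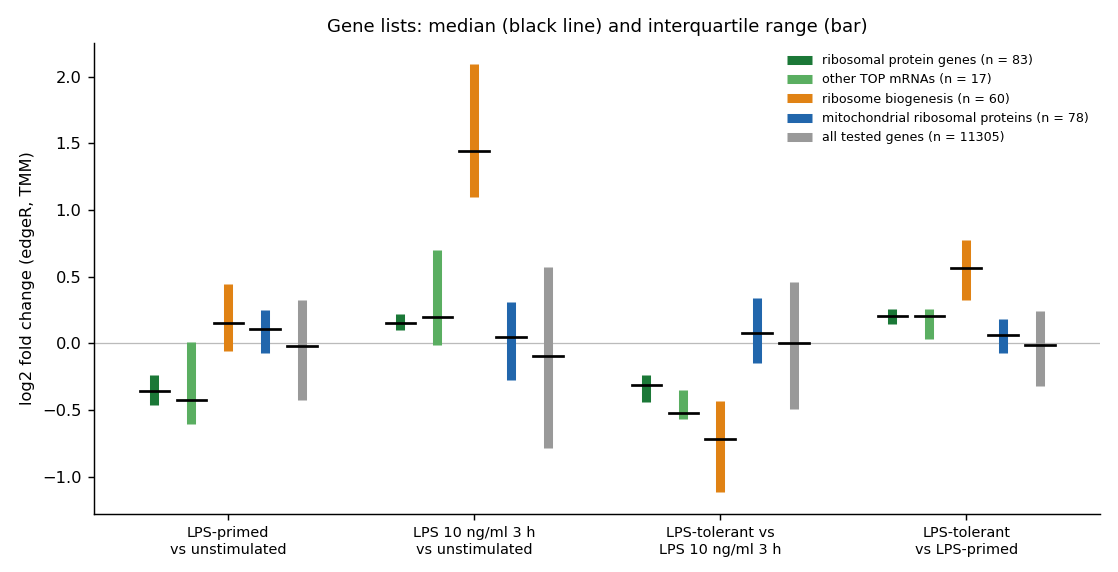
Median (black line) and interquartile range (bar) of log2 fold changes from edgeR with TMM scaling (y axis) for 83 ribosomal protein genes, 17 other TOP mRNAs, 60 ribosome biogenesis genes, 78 mitochondrial ribosomal protein genes and all 11305 tested genes in 4 comparisons (x axis). Ribosomal protein genes lie at -0.36 in LPS-primed and 0.15 after the single dose, and ribosome biogenesis genes at 0.15 and 1.45.

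Among 19 tested regulators, 3 were higher and 2 lower in LPS-primed BMDMs, and 8 higher and 4 lower after the single dose. With library size alone these counts were 3 higher and 7 lower in LPS-primed BMDMs and 5 higher and 9 lower after the single dose, and with the replicate block 4 and 4 and 9 and 6. Myc, which drives ribosome production, had 76.5, 57.4 and 26.4 normalized counts in unstimulated BMDMs, 1888, 1447 and 1265 after the single dose, 75.1, 26.2 and 27.2 in LPS-primed and 679.9, 497 and 538 in LPS-tolerant BMDMs. Its log2FC was 4.84 for the single dose (edgeR adjusted p = 5.03e-08) and 3.74 for LPS-tolerant against LPS-primed BMDMs (adjusted p = 4.53e-05). Larp1, which binds TOP mRNAs, had 466, 494 and 445 counts in unstimulated BMDMs and 1534, 2918 and 2644 after the single dose (log2FC 2.34), and its log2FC was 0.98 in LPS-primed BMDMs. Eif4ebp1, the cap-binding repressor that mTOR inactivates, rose with priming from 316, 316 and 241 to 1012, 869 and 743 counts (log2FC 1.59, edgeR adjusted p = 4.45e-05). With TMM, Mtor had a log2FC of 0.39 after the single dose (edgeR adjusted p = 0.0467) and of 0.04 with priming, which was not called. For the single dose, library size alone lowered the median of all genes from -0.09 to -0.43, so that the rise of Mtor depends on the scaling. The mRNA levels of these genes do not measure the activity of mTOR.

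The genes most like the ribosomal protein genes were sought by Pearson's r over the 6 group means of log2 CPM with the mean of the 83 genes. Among the 10 highest were Syne3 (r = 0.997), Alcam, Naca, Cspg4, Cd63, Pitrm1, Tmem132a, Pik3r1 and Nid2 (r = 0.977), over 6 points that share the scaling of the libraries. Among the 83 genes themselves, r with the shared profile was -0.60 for Rpl36al, 0.31 for Rpl24, 0.42 for Rpl7l1, 0.47 for Rpl41 and 0.49 for Rps9, and 0.63 or more for all others.

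**Figure D5:**
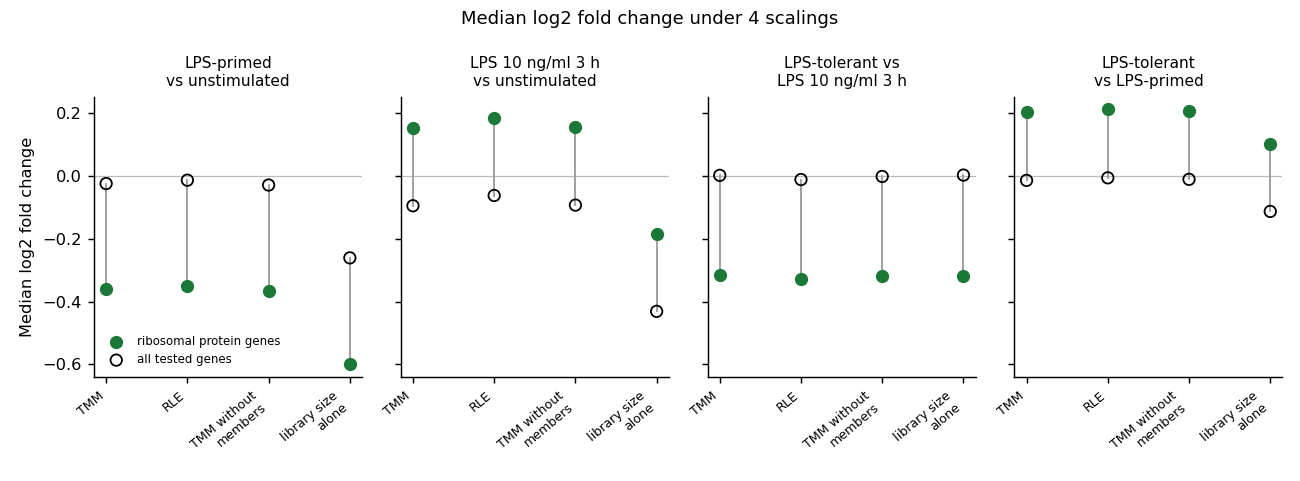
Median log2 fold change (y axis) of the 83 ribosomal protein genes (filled) and of all tested genes (open) in 4 LPS comparisons (panels) under 4 scalings (x axis): TMM, RLE, TMM from genes other than the 83, and library size alone. For the single dose the filled points lie above 0 under the first 3 scalings and at -0.18 under library size alone. A scaling shifts all genes by nearly the same amount, so the distance between filled and open points differs little by construction.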

How the data were processed

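RNA-Seq of 18 BMDM samples was analysed, 3 in each of 6 groups assigned from the sample titles. Per the study's methods, the authors made TruSeq stranded mRNA libraries and mapped 150-base read pairs to GRCm39 with HISAT2 and counted read pairs per gene with HTSeq-count, and they deposited raw counts per gene symbol without normalization. The strand option, the annotation and the versions of HISAT2 and HTSeq-count are not given in the sources used here. The line for no feature held 26.5% to 33.1% of pairs, and these lines were left out. The authors' own tests used DESeq2.

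All 18 samples entered 1 fit in edgeR 4.0.16 (R 4.3.3) with a mean for each group, TMM scaling, the default filter (minimum count 10, total 15) and quasi-likelihood tests with Benjamini-Hochberg adjustment over 11305 genes. SE was taken as log2FC over the root of the F statistic, and intervals use 12 residual degrees of freedom. The fit was tested on simulated data. Shares of counts were compared by exact two-sided permutation tests, unpaired and, as an alternative chosen after seeing the data, within same-numbered samples. Same-numbered samples deviated together from their group means in every pair of every comparison (r 0.152 to 0.509), so the replicate block was also fitted. Alternatives were RLE, library size, TMM from other genes, 2 other filters, DESeq2 1.42.0, limma-voom 3.58.1, only the groups compared, the study's limits and leaving out each sample. The members and lists were chosen with earlier results of these data known. Named genes were the 4 highest and 4 lowest log2FC in each comparison, the 3 highest and lowest levels per length, paralogues, well-known members, members called in an interaction contrast, and from each other list the 3 lowest adjusted p-values in each of the comparisons with unstimulated BMDMs. Positions and lengths are those of GENCODE M39 on GRCm39, with the shortest transcript that holds a coding sequence as long as the canonical one. Rpl37rt and Rpl6l had no entry there. Values of some genes chosen by these rules are not reported here.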

Additional observations from a re-analysis of the deposited data

Results flagged for a closer look

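Rpl7l1 had a second-dose effect minus first-dose effect of -0.90 on the log2 scale, and this difference passed its own test (edgeR adjusted p = 0.00274). The second-dose effect includes the fresh medium and the added 3 h. The mean of Rpl7l1 was 598 normalized counts in unstimulated and 1367 in single-dose BMDMs, against 768 in LPS-primed and 942 in LPS-tolerant BMDMs.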

How the results depend on the processing

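Precision is limited by 3 samples per group. For the single dose, the median log2FC of the 83 genes was -0.18 with library size alone, in place of 0.15, with 1 gene higher and 6 lower. With TMM 80 of the 83 genes had a log2FC above 0 for the single dose, and most turned negative with library size alone, where 74 had their highest group mean in unstimulated BMDMs. Of the named genes called with either scaling, Rps4x (-0.33), Rpl11 (-0.28), Rpl6 (-0.31) and Rpl4 (-0.029) turned negative there. Library size alone gave 63 lower in LPS-primed BMDMs with a median of -0.60, where the median of all genes was -0.26. Less the median of all genes it was -0.34, as with TMM, since a scaling shifts all genes by nearly the same amount. The share of all genes called was not counted with library size alone. For LPS-tolerant against LPS-primed BMDMs library size alone gave a median of 0.10. The scaling factors that differ are given above.

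With the replicate block, which pairs same-numbered samples, LPS-primed BMDMs had 2 higher and 49 lower, the single dose 12 higher, LPS-tolerant against the single dose 1 higher and 54 lower, and against LPS-primed 5 higher. The block reversed no median and no called named gene. With no filter, where 15486 genes were tested, 20 were lower in LPS-primed and 15 in LPS-tolerant against the single dose. With only the groups compared 11 and 13 were lower, and 1 was higher in LPS-tolerant against LPS-primed. Why these counts were smaller was not tested. DESeq2 called 1 higher in LPS-primed and 12 after the single dose. At the study's limits of 2 on the log2 scale, 0 genes were called in any comparison, since no log2FC among the 83 reached that size.

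Leaving out 1 sample gave 0 to 1 higher and 13 to 36 lower in LPS-primed (13 without LPS-primed replicate 2, 14 without replicate 3, 15, 18 and 19 without unstimulated replicates 1, 2 and 3), 3 to 7 higher after the single dose (3 without its replicate 1 or 3), 0 to 1 higher and 12 to 27 lower in LPS-tolerant against the single dose (13 and 12 without LPS-tolerant replicates 2 and 3, 15 and 12 without single-dose replicates 1 and 3) and 0 to 2 higher against LPS-primed. The medians ranged from -0.46 to -0.31, 0.13 to 0.23, -0.38 to -0.27 and 0.15 to 0.29 in these comparisons, from 0.028 to 0.18 for carboplatin in LPS-primed and from -0.15 to 0.011 in LPS-tolerant BMDMs, the last without carboplatin replicate 3. Less the median of all genes, the latter ran from -0.16 to 0.013. The percent of counts changed by -1.31 to -1.11, -0.519 to -0.243, -0.793 to -0.517, 0.0778 to 0.278, 0.106 to 0.306 and -0.0760 to 0.121 points, and by -0.0255 for carboplatin in LPS-tolerant BMDMs without the 50 most abundant other genes. The ratio of large to small subunit changed by -0.00277 (without carboplatin replicate 2) to 0.0286 for carboplatin in LPS-primed BMDMs. Of 253 named values, 253 kept their call with RLE and with TMM from other genes. Called values kept their direction there. Values that were not called moved by less than their SE, and their sign was not checked.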
